A study of Mus musculus with 12 samples.

Results

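Inflammasomes are cytosolic protein assemblies through which myeloid cells turn a sensed microbe or cell damage into cytokine release and lytic cell death. A sensor of the NOD-like receptor family oligomerizes and recruits caspase-1, often through the adaptor ASC. Caspase-1 then matures interleukin-1β and interleukin-18 and cuts gasdermin D, whose freed end forms pores in the plasma membrane, a death called pyroptosis. Mouse caspase-11, encoded by Casp4, binds bacterial lipopolysaccharide in the cytosol and cuts gasdermin D without a separate sensor. The 9 genes described here are the sensors or sensor-family genes Nlrp3, Nlrc4, Naip5, Nlrp1b and Nlrp12, the adaptor gene Pycard (ASC), the caspase genes Casp1 and Casp4, and the pore gene Gsdmd. They were taken by their symbols from a deposited table of 39666 genes, and all 9 were found. Their NCBI gene identifiers in that table were 216799 for Nlrp3, 66824 for Pycard, 12362 for Casp1, 12363 for Casp4, 69146 for Gsdmd, 268973 for Nlrc4, 17951 for Naip5, 637515 for Nlrp1b and 378425 for Nlrp12.

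RNA was sequenced from TREM-1+ and TREM-1- eosinophils of the airways, sorted side by side from each of 6 pooled lung lavages, which gave 12 libraries, 6 in each group. TREM-1, which Trem1 encodes, is a surface receptor that amplifies the activation of myeloid cells. Both groups came from wild-type C57BL/6 mice aged 8 to 12 weeks, given 20 µg ovalbumin with 4 mg alum on days 0 and 7, exposed to nebulized 1% ovalbumin for 40 minutes on each of days 16 to 18, and harvested on day 19. The series holds no group without allergen, every cell passed the same Siglec-F+ eosinophil gate, and the labels do not say how many mice made up a pool.

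The TREM-1+ libraries held between 8626701 and 19274912 estimated counts, against between 16513387 and 21234053 in TREM-1- libraries, and the TREM-1+ total was the lower one in 6 of 6 lavages. Trem1 itself averaged 93.1 ± 20.0 CPM (the count relative to the TMM-scaled library size) in TREM-1+ cells and 30.7 ± 8.12 CPM in TREM-1- cells (SD, n = 6 each), and was higher in 6 of 6 pairs. The libraries of lavages 1 and 2 lay closer together than any other pair, in TREM-1+ and in TREM-1- cells, although they differed by more than counting noise. All 12 eosinophil marker genes were detected, and their summed level was 4624 to 6997 CPM in TREM-1+ libraries and 4777 to 7343 CPM in TREM-1- libraries, higher in 2 of 6 pairs. Of these 12 markers 3 were called higher and 6 lower. Siglecf (-0.14), Il5ra (-0.15) and Ccr3 (-0.27) were lower in 6 of 6 pairs by log2 changes of a size like those of the members called lower. Ear1, which has a near-identical relative in Ear2, was lower in 6 of 6 pairs by more (-1.50). The markers named here are all lower ones, and the 3 called higher are not named. Alveolar macrophage markers summed to 408 to 952 CPM in TREM-1+ against 237 to 709 CPM in TREM-1- libraries and were higher in 6 of 6 pairs; Car4 and Chil3 made up 95.1% of that sum, 4 of the 6 tested markers of 10 listed were called higher, and the defining markers Marco, Fabp4 and Cidec averaged under 0.5 CPM over all libraries. T and innate lymphoid cell markers summed to 10.4 to 131 CPM in TREM-1+ against 8.78 to 68.7 CPM in TREM-1- libraries, were higher in 6 of 6 pairs, and 7 of 10 were called higher. Dendritic cell markers summed to 19.0 to 117 CPM in TREM-1+ against 16.4 to 83.7 CPM in TREM-1- libraries and were higher in 5 of 6 pairs. Monocyte and interstitial macrophage markers summed to 434 to 1016 CPM in TREM-1+ against 554 to 1118 CPM in TREM-1- libraries and were higher in 1 of 6 pairs. Ly6c2 and Fn1 made up 97.2% of that sum, and of the 6 tested of 12 listed 3 were called higher and 1 lower. Neutrophil markers summed to 1172 to 2109 CPM in TREM-1+ against 1517 to 2189 CPM in TREM-1- libraries and were lower in 6 of 6 pairs, a sum of which Retnlg and Mmp9 made up 92.4%; of the 8 tested of 14 listed, 6 were nonetheless called higher and 2 lower, Elane was at 0, and Camp, Lcn2, Mmp8, Stfa2l1 and Mpo averaged under 0.5 CPM over all libraries, with up to 1.02 CPM in a TREM-1+ library (Lcn2). The part of these other cells, and of the shift in eosinophil markers, in the results below was not tested, and in sorted bulk RNA fewer cells of a type and less RNA per cell cannot be told apart.

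Some members lie beside relatives in the genome, and the promoter windows show how alike such neighbours are there. Likeness of promoters does not say how reads are shared, which rests on the transcripts. In the RefSeq table Naip5 lies between its relatives Naip2 and Naip6, Nlrp1b lies next to Nlrp1a, and Casp1, Casp4 and Casp12 follow one another. Promoter windows of 300 bases, from 250 before to 50 after an annotated start (RefSeq, GRCm38.p6), were found for 8 of the 9 members. The member without a window was Gsdmd. The windows of Naip5 (chr13:100247287-100247586, minus strand) and Naip2 (chr13:100202073-100202372, minus strand) are shown because they share a run of 34 bases, printed in capitals, and match at 91.8% of 134 aligned bases.
Naip5: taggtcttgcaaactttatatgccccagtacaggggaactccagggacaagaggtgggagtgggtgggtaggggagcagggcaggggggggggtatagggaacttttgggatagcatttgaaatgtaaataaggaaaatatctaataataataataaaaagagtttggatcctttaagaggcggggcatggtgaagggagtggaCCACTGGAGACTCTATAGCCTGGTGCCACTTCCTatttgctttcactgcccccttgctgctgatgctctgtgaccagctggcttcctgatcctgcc
Naip2: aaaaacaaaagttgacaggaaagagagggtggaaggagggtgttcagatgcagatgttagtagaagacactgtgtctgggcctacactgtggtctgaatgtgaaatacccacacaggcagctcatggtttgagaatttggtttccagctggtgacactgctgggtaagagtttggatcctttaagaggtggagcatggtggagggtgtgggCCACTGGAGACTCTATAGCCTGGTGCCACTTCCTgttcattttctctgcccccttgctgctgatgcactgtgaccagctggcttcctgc
The windows of Nlrp1b (chr11:71230684-71230983, minus strand) and Nlrp1a (chr11:71144655-71144954, minus strand) share a run of 37 bases, also in capitals, and match at 89.6% of 278 aligned bases. Nlrp1b has another window (chr11:71201407-71201706, minus strand), not shown. The window with the longest run shared with Nlrp1a was taken.
Nlrp1b: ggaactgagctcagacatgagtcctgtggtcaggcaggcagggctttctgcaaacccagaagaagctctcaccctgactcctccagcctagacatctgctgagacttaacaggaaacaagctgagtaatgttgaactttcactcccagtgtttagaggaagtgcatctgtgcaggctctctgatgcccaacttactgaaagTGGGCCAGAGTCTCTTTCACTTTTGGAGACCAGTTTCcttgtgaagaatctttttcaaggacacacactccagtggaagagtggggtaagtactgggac
Nlrp1a: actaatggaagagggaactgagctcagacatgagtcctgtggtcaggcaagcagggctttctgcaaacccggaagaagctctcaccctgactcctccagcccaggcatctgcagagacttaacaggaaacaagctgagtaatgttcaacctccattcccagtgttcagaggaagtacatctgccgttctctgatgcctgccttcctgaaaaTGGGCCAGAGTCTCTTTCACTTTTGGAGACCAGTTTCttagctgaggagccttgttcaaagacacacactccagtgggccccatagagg
The windows of Casp1 and Casp4, which are neighbours too, shared no run longer than 7 bases.

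The windows were searched on both strands for the letters of 4 motifs. Gsdmd, which has no window, was not searched, and the counts of members below leave it out. The interferon-stimulated response element core, GAAA, any 2 bases and GAAA again, is held by 3.44% of the 32851 windows in the table and by no member's window. TGANTCA (AP-1) is held by 7.81% of all windows and likewise by none of the members'. TTCNNNGAA (GAS) is held by 8.3% of all windows and, among the members, by Nlrp12 alone. The NF-kB core, GGG and CC with any 5 bases between them, is held by 50.8% of all windows and by those of Nlrp3, Casp1, Casp4 and Naip5. The windows of Nlrp12 (chr7:3249691-3249990, minus strand), the one member called higher in TREM-1+ cells, and of Casp4 (chr9:5308599-5308898, plus strand), which holds overlapping NF-kB cores on both strands, are shown with the matches in capitals.
Nlrp12: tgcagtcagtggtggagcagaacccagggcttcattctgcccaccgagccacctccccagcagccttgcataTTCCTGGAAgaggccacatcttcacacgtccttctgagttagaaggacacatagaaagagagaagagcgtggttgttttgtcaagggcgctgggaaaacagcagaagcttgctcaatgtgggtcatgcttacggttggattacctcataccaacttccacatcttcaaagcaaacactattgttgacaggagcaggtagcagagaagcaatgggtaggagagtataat
Casp4: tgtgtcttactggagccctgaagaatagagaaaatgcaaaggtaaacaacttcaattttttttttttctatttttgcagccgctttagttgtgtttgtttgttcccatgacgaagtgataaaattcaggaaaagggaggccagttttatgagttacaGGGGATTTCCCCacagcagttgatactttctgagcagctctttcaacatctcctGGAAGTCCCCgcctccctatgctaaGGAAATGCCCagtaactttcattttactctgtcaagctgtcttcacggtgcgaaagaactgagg
A match is a run of letters and not a shown binding site, and no match says only that these letters are not in the window.

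In TREM-1+ eosinophils the sensor gene Naip5, the sensor gene Nlrp1b and the pore gene Gsdmd were lower than in the TREM-1- cells sorted beside them, and Nlrp12 was higher. The changes were small, between -0.31 and 0.19 on the log2 scale. Pycard, Casp1, Casp4 and Nlrc4 did not pass the test, and Nlrp3 was too scarce to be tested. These calls rest on TMM scaling, and with library totals alone none of the 3 lower calls passed, as given below. Fold changes are TREM-1+ minus TREM-1- from edgeR's quasi-likelihood test with the lavage as a block, and a gene was called at a Benjamini-Hochberg adjusted p below 0.05 over all 18302 tested genes. Of the 9 members 8 passed the filter on low counts, 1 was called higher and 3 lower, against 9.82% of all tested genes called in either direction, 3.1% higher and 6.72% lower. The median log2 fold change of the 8 was -0.15, against 0.00 over all tested genes. The difference had the same sign in 6 of 6 lavages for 6 members, which held for 13.4% of all tested genes. The ranges of the 2 groups overlapped for every member, while 0.951% of tested genes had ranges apart. The 4 called members were the 4 with the highest CPM, with standard errors between 0.034 and 0.049 on the log2 scale; for the other 4 tested members the standard errors lay between 0.084 and 0.16.

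**Figure D1:**
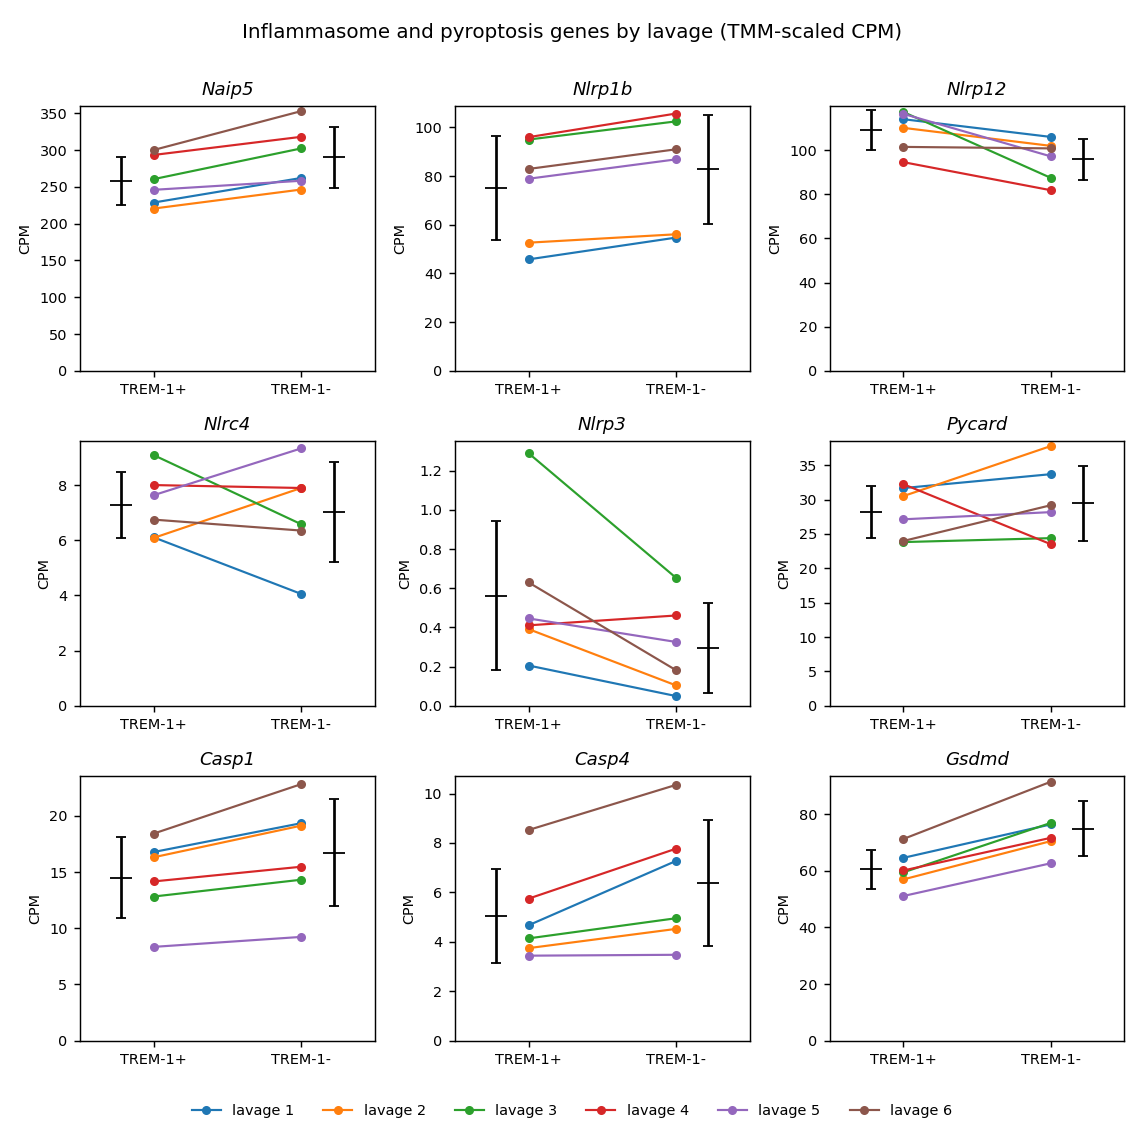
TMM-scaled CPM of each of the 9 members in the TREM-1+ and the TREM-1- library of each lavage, with a line joining the 2 libraries of a lavage and bars for the mean and SD of each group. At this scaling Gsdmd, Naip5, Nlrp1b, Casp1 and Casp4 were lower in TREM-1+ cells in 6 of 6 lavages and Nlrp12 higher in 6 of 6, while the ranges of the groups overlapped for all 9.

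Naip5, whose product binds bacterial flagellin in the cytosol and hands it to NLRC4, had 229, 221, 261, 293, 246 and 300.2 CPM in the TREM-1+ libraries of lavages 1 to 6, against 262, 246, 302, 318, 258 and 353 CPM in the TREM-1- libraries. The TREM-1+ value was the lower one in every lavage, with paired differences between -0.23 and -0.07 on the log2 scale. The means were 258.2 ± 33.0 CPM in TREM-1+ against 290.0 ± 41.4 CPM in TREM-1- cells (SD, n = 6 each), a fitted log2 change of -0.17 ± 0.03 (SE; edgeR adjusted p = 0.000901). Flipping the signs of the 6 paired values (exact permutation test, two-sided) gave p = 0.0312, the smallest that 6 pairs allow. Any gene whose 6 pairs share a sign has this value. Of the 31-base words of its longest GENCODE vM21 transcript, 53.1% occur in transcripts of other genes, 36.7% in Naip6, so the split of counts within the family is uncertain. The sum of Naip1, Naip2, Naip5 and Naip6, which such sharing within these 4 genes does not touch, was lower in TREM-1+ cells by a like amount (log2 fold change -0.20, edgeR adjusted p = 1.4e-05).

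Naip2, the sensor of the inner rod protein of bacterial secretion systems in the mouse, had 241, 208, 249, 224, 216 and 302 CPM in TREM-1+ libraries, against 290.1, 279, 285, 276, 255 and 334 CPM in TREM-1- libraries. It was lower in TREM-1+ cells in 6 of 6 lavages (log2 fold change -0.26 ± 0.04, edgeR adjusted p = 3.32e-06). Nlrc4, which joins the NAIP proteins to caspase-1, had 6.11, 6.09, 9.09, 8.01, 7.64 and 6.75 CPM in TREM-1+ libraries, against 4.06, 7.90, 6.59, 7.90, 9.34 and 6.36 CPM in TREM-1- libraries. Its groups were interleaved, 4 of 6 pairs being higher in TREM-1+ cells, and the log2 fold change of 0.08 ± 0.15 did not pass (edgeR adjusted p = 0.862).

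Nlrp1b, whose product can be triggered by a protease that cuts it, had 45.8, 52.6, 95, 96, 78.9 and 82.9 CPM in TREM-1+ libraries, against 54.7, 56.1, 102, 106, 86.9 and 91.0 CPM in TREM-1- libraries. It was lower in TREM-1+ cells in all 6 lavages, by 0.09 to 0.26 on the log2 scale, and the fitted change was -0.14 ± 0.05 (edgeR adjusted p = 0.0432). This call was near the threshold: it was lost without lavage 1, 3, 4, 5 or 6 (adjusted p between 0.0575 and 0.202), under limma-voom (adjusted p = 0.0618), and when the counts of Nlrp1a and Nlrp1b were summed (-0.10, adjusted p = 0.172). Nlrp1a, its neighbour, averaged 13.2 ± 1.98 CPM in TREM-1+ against 12.2 ± 3.14 CPM in TREM-1- cells and did not pass (0.14 ± 0.11, edgeR adjusted p = 0.557). Of the 31-base words of the longest Nlrp1b transcript, 6.48% occur in transcripts of other genes, 5.32% in Nlrp1a, against 53.1% for Naip5.

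Nlrp12, described in mice both as a brake on NF-kB signalling and as an inflammasome sensor, had 114, 110.1, 117, 94.5, 116 and 101 CPM in TREM-1+ libraries, against 106, 102, 87.4, 81.8, 97.2 and 101 CPM in TREM-1- libraries. TREM-1+ was the higher of each pair, by 0.42 on the log2 scale in lavage 3 and by 0.01 in lavage 6. The means were 109.0 ± 9.11 CPM in TREM-1+ against 95.9 ± 9.31 CPM in TREM-1- cells, a fitted log2 change of 0.19 ± 0.05 (edgeR adjusted p = 0.0079). Without lavage 3 it was 0.14 and no longer called (adjusted p = 0.0599), and in lavages 1 and 2 alone it was 0.13 (adjusted p = 0.217). Lavage 3 was also the pair whose 2 libraries deviated together least over all tested genes (correlation 0.127), and its TREM-1+ library was closest to a TREM-1- library of another lavage. Among the marker lists above, those of alveolar macrophages and of T and innate lymphoid cells were also higher in 6 of 6 pairs. Of the 8 tested neutrophil markers 6 were called higher and 2 lower. Of the 6 tested monocyte and interstitial macrophage markers 3 were called higher and 1 lower. The part of any of these cells in this difference was not tested.

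Nlrp3, the sensor of potassium loss and membrane damage, was scarce. It had 4, 7, 19, 4, 7 and 11 estimated counts in TREM-1+ libraries, 52 in all, against 1, 2, 12, 7, 6 and 3 in TREM-1- libraries, 31 in all. Scaled to depth this was 0.205 to 1.29 CPM in TREM-1+ against 0.0495 to 0.653 CPM in TREM-1- libraries, higher in TREM-1+ cells in 5 of 6 lavages. The same exact permutation test over its pairs gave p = 0.0625. The gene fell below the filter on low counts and has no fitted fold change.

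Pycard, whose product ASC links sensors to caspase-1, had 31.7, 30.5, 23.8, 32.2, 27.1 and 24 CPM in TREM-1+ libraries, against 33.7, 37.8, 24.4, 23.5, 28.2 and 29.2 CPM in TREM-1- libraries. It was lower in TREM-1+ cells in 5 lavages and higher in lavage 4, where the paired difference was 0.45 on the log2 scale. The log2 fold change was -0.06 ± 0.08 and did not pass (edgeR adjusted p = 0.781).

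Casp1, the protease of the canonical inflammasome, had 16.8, 16.3, 12.8, 14.2, 8.34 and 18.4 CPM in TREM-1+ libraries, against 19.3, 19.1, 14.3, 15.5, 9.23 and 22.8 CPM in TREM-1- libraries. Casp4, for caspase-11, had 4.67, 3.74, 4.14, 5.75, 3.44 and 8.53 CPM in TREM-1+ libraries, against 7.27, 4.52, 4.95, 7.77, 3.47 and 10.4 CPM in TREM-1- libraries. For both genes the TREM-1+ value was the lower one in every lavage, although the lavages themselves differed by more than the fractions did. The log2 fold changes were -0.20 ± 0.10 for Casp1 and -0.32 ± 0.16 for Casp4, and neither passed over all genes (edgeR adjusted p = 0.24 and 0.248). The exact sign-flip permutation test gave p = 0.0312 for each, as it does for any gene whose 6 pairs share a sign. Such a shared sign held for 13.4% of all tested genes, so this p adds nothing to it. With library totals alone the log2 fold changes were -0.07 for Casp1 and -0.20 for Casp4 (edgeR adjusted p = 0.705 and 0.476).

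Gsdmd, the gene of the pore protein that both caspases cut, had the smallest p among the members. It had 64.6, 57.0, 59.5, 60.2, 51.1 and 71.3 CPM in TREM-1+ libraries, against 76.4, 70.5, 77.0, 71.7, 62.7 and 91.5 CPM in TREM-1- libraries. The paired differences were alike from lavage to lavage, between -0.37 and -0.24 on the log2 scale, and the TREM-1+ value was lower in 6 of 6. The means were 60.6 ± 6.85 CPM in TREM-1+ against 75.0 ± 9.60 CPM in TREM-1- cells (SD, n = 6 each), with a log2 fold change of -0.31 ± 0.05 (edgeR adjusted p = 2.86e-05). The call held without any 1 lavage, within lavages 1 and 2 (-0.25) and within lavages 3 to 6 (-0.33).

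Scaling by library totals alone, without TMM factors, moved the median of all tested genes up by 0.13 on the log2 scale and left no member called lower: Gsdmd was then -0.18 (edgeR adjusted p = 0.0508), Naip5 -0.04 (0.653) and Nlrp1b -0.02 (0.888), while Nlrp12 remained called higher at 0.31. The share of lower genes among all calls was 68.4% with TMM factors and 16.7% with totals. Ratios of 2 genes within a library do not depend on the scaling; the 5 ratios given here were chosen after values were seen and carry no test. The count ratio of Nlrp12 to Gsdmd was 1.82 ± 0.31 in TREM-1+ and 1.29 ± 0.19 in TREM-1- libraries (SD, n = 6 each), and it was higher in TREM-1+ cells in 6 of 6 lavages, by 1.27 to 1.73 times. The ratio of Nlrp12 to Naip5 was 0.430 in TREM-1+ and 0.338 in TREM-1- libraries, again higher in 6 of 6.

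**Figure D2:**
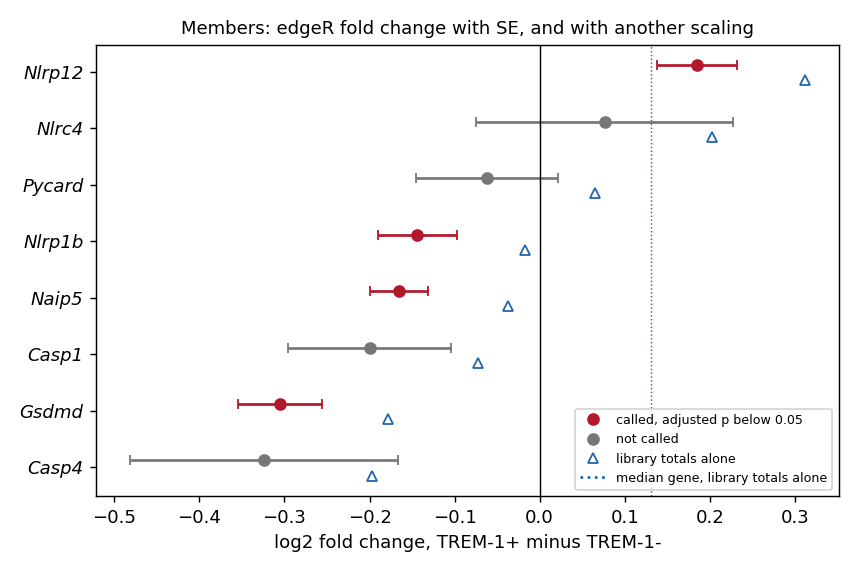
Log2 fold change, TREM-1+ minus TREM-1-, of the 8 tested members: filled circles with bars give the edgeR value and its SE (red where called), open triangles the value with library totals alone, and the dotted line the median of all tested genes at that scaling (0.13). With TMM factors Gsdmd (-0.31), Naip5 (-0.17) and Nlrp1b (-0.14) were called lower and Nlrp12 (0.19) higher; with library totals the first 3 were not called.

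The members also differed among lavages, and for all of them the lavage held a larger share of the variance of log2 CPM than the fraction did. Nearly as much went with the fraction in Gsdmd (50.2% lavage, 48.6% fraction) and in Nlrp12 (45.0% lavage, 36.5% fraction). These shares are sums of squares not adjusted for there being 6 lavages and 2 fractions, so noise alone would also give the lavages the larger share. Nlrp1b stood apart, with 96.4% of its variance between lavages: its libraries of lavages 1 and 2 lay at or below 56.1 CPM and those of lavages 3 to 6 at or above 78.9 CPM, with means of 92.3 CPM in lavages 3 to 6 and 52.3 CPM in lavages 1 and 2. Casp1 had 93.8% and Casp4 87.1% of its variance between lavages. Both were lowest in lavage 5 and highest in lavage 6, where the mean of both fractions was 2.35 times that of lavage 5 for Casp1 and 2.73 times for Casp4.

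Levels of different genes were compared as TMM-scaled CPM per kilobase of the longest annotated transcript, over all 12 libraries. Naip5 was highest at 52.7 and Gsdmd next at 37.8, with overlapping ranges. Nlrp1b followed at 18.3, below every Gsdmd library, and Nlrp1b, Nlrp12 (14.8), Casp1 (10.4) and Pycard (7.59) formed a chain in which each gene overlapped its neighbour. Casp4 (3.01) lay apart from Pycard and overlapped Nlrc4 (1.51), and Nlrp3 (0.107) was below all libraries of Nlrc4, with a mean 494 times lower than that of Naip5. The place of Pycard rests on the transcript taken, since its longest is 3800 bases and its shortest coding one 493 bases; with the shorter one, an alternative chosen after seeing the data, its level was 58.5 per kilobase and the highest of all.

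**Figure D3:**
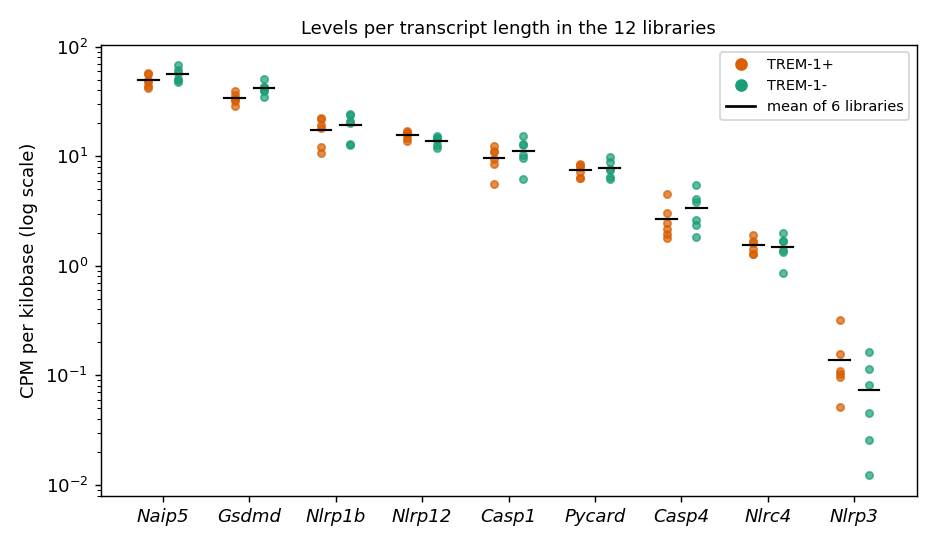
Level of each member as TMM-scaled CPM per kilobase of its longest transcript, on a log axis, with 1 point for each TREM-1+ and TREM-1- library and a line at the mean of each group. Naip5 and Gsdmd lie highest, at means of 52.7 and 37.8, and Nlrp3 lowest at 0.107.

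The genes most like each member were found by Pearson's correlation of log2 CPM over the 12 libraries among 10966 genes with a mean of at least 5 CPM. These correlations join fraction and lavage differences, share the depth of each library, and are given as a description. The nearest to Casp1 were Wars1 (r = 0.979), a tryptophanyl-tRNA synthetase gene, and the guanylate-binding protein gene Gbp2 (r = 0.974), and the nearest to Casp4 were Parp9 (r = 0.975) and the viral RNA sensor gene Ifih1 (r = 0.964). Those nearest to Gsdmd were Rnf34 (r = 0.956) and Lmo2 (r = 0.954), and to Nlrp12 Fadd (r = 0.966), the death-receptor adaptor gene, and Aga (r = 0.941). Nlrc4 was nearest to Ktn1 (r = 0.903) and Pycard to Dctn3 (r = 0.922), while the 2 nearest to Naip5 and to Nlrp1b were predicted genes with no given name, such as Gm20559 (r = 0.965) and Gm52129 (r = 0.984).

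The other genes of the pathway were taken from 7 lists, of which 127 of 148 genes could be tested; 7 were called higher and 35 lower in TREM-1+ cells, 33.1% in all against 9.82% of all tested genes, with a median log2 fold change of -0.05. These lists were drawn up with results of these data known. With library totals alone the counts were 18 higher and 20 lower.

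**Figure D4:**
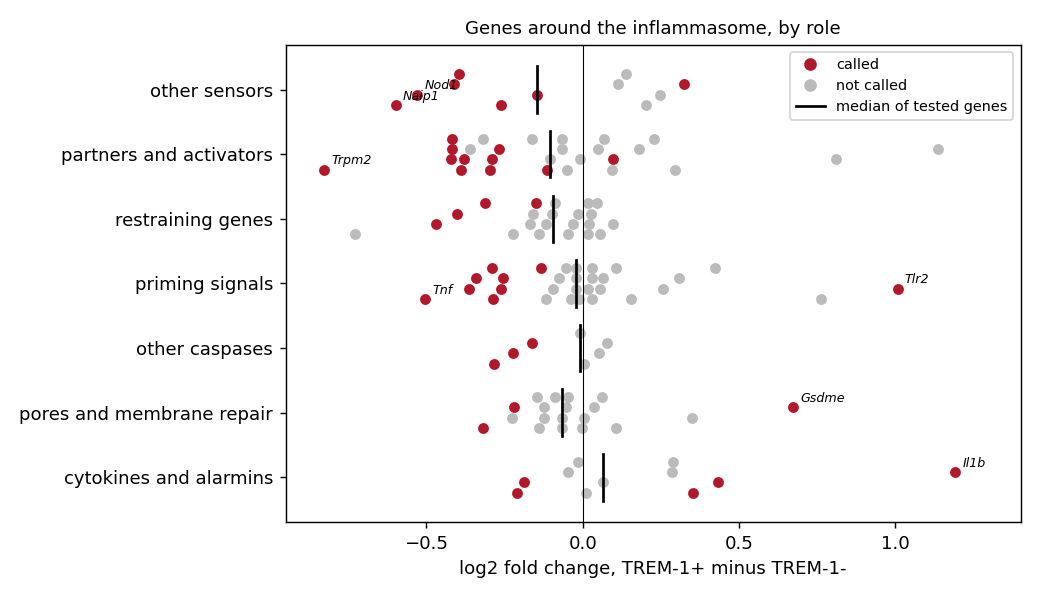
Log2 fold change, TREM-1+ minus TREM-1-, of every tested gene in the 7 pathway lists, by role, with called genes in red and the median of each list as a bar. Il1b (1.19), Tlr2 (1.01) and Gsdme (0.67) lie farthest to the right among the called genes.

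Of 11 tested further sensors and sensor-family genes, 1 was called higher and 6 lower (median -0.15), 63.6% called against 9.82% of all tested genes. Nlrx1, a NOD-like receptor of mitochondria, averaged 31.6 ± 3.06 CPM in TREM-1+ against 25.3 ± 1.63 CPM in TREM-1- cells and was higher in 6 of 6 lavages (0.32 ± 0.07, edgeR adjusted p = 0.00302). The peptidoglycan sensor genes were lower: Nod1 averaged 36.9 ± 8.32 CPM in TREM-1+ against 53.4 ± 12.3 CPM in TREM-1- cells (-0.53 ± 0.06), and Nod2 42.2 ± 4.82 CPM in TREM-1+ against 55.6 ± 6.89 CPM in TREM-1- cells (-0.39 ± 0.06). Nlrc5, a transactivator of MHC class I genes, was also lower, at 288 ± 99.7 CPM in TREM-1+ against 379 ± 122 CPM in TREM-1- cells (-0.41 ± 0.04). All 3 fell in 6 of 6 lavages. Aim2, the sensor of cytosolic DNA, averaged 44.9 CPM in TREM-1+ against 41.5 CPM in TREM-1- cells and did not pass (edgeR adjusted p = 0.317).

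Among 27 tested partners and activators, 1 was called higher and 10 lower (median -0.10), 40.7% called against 9.82% of all tested genes. Zbp1, a sensor of Z-form nucleic acids, averaged 152 ± 43.2 CPM in TREM-1+ against 203 ± 58.4 CPM in TREM-1- cells (-0.42 ± 0.04), and Gbp2, of a family that opens vacuoles and coats bacteria, 172 ± 78.2 CPM in TREM-1+ against 232 ± 102 CPM in TREM-1- cells (-0.42 ± 0.04). Gbp7 (-0.38 ± 0.04) and the transcription factor gene Irf1 (-0.29 ± 0.03) were lower as well, each of these 4 genes in 6 of 6 lavages. Txnip, whose product binds thioredoxin and NLRP3, was the one called higher, by 0.10 ± 0.03 (edgeR adjusted p = 0.0272), a call lost without lavage 1, 2, 4 or 5 (adjusted p between 0.0503 and 0.0839). Of 22 tested restraining genes 4 were called, each lower (median -0.09), 18.2% against 6.72% of all tested genes called lower. These included the interferon-inducible GTPase genes Igtp (-0.47 ± 0.04), Irgm1 (-0.40 ± 0.04) and Irgm2 (-0.31 ± 0.04). The other, Cflar, whose product blocks caspase-8, was lower (log2 fold change -0.15 ± 0.04, edgeR adjusted p = 0.0103), a call lost with library totals alone and without lavage 1 or 6. Tnfaip3 and Xiap, abundant brakes on NF-kB signalling and on caspases, did not pass.

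Of 7 other tested caspase-related genes 3 were called, each lower (median -0.01), 42.9% against 6.72% of all tested genes called lower. Among them Casp8, the initiator of death-receptor apoptosis, averaged 61.5 ± 10.01 CPM in TREM-1+ against 74.9 ± 13.2 CPM in TREM-1- cells and was lower in 6 of 6 lavages (-0.28 ± 0.05, edgeR adjusted p = 0.000234), a call lost with library totals alone. Apaf1 and Casp2 had fold changes of -0.01 and 0.01 and did not pass.

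Among 19 tested genes of pores and membrane repair, 1 was called higher and 2 lower (median -0.06), 15.8% in all against 9.82% of all tested genes. Gsdme, another gasdermin, had 45.1, 42.3, 51.1, 43.3, 49.9 and 36.1 CPM in TREM-1+ libraries, against 26.3, 28.4, 29.2, 28.4, 30.8 and 24.3 CPM in TREM-1- libraries. Every TREM-1+ library lay above every TREM-1- library (0.67 ± 0.07, edgeR adjusted p = 6.19e-09), opposite in direction to Gsdmd. The count ratio of Gsdme to Gsdmd was 0.750 ± 0.16 in TREM-1+ and 0.380 ± 0.07 in TREM-1- libraries, 1.82 to 2.27 times higher in TREM-1+ cells in 6 of 6 lavages. Chmp4b, of the ESCRT machinery that sheds damaged membrane, was lower (log2 fold change -0.32 ± 0.04, edgeR adjusted p = 1.69e-06). Ninj1, needed for the final rupture of the plasma membrane, averaged 82.2 ± 10.6 CPM in TREM-1+ against 96.0 ± 14.0 CPM in TREM-1- cells (-0.22 ± 0.06, edgeR adjusted p = 0.00792), lower in 5 of 6 lavages, and lost its call without lavage 2 (adjusted p = 0.0634) and with library totals alone.

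Among 11 tested cytokines, alarmins and their antagonists, 3 were called higher and 2 lower (median 0.07), 45.5% called against 9.82% of all tested genes. Il1b, the main substrate of caspase-1, had 49.5, 45.9, 42.2, 54.6, 49.6 and 44.4 CPM in TREM-1+ libraries, against 23.4, 20.8, 17.4, 23.2, 18.2 and 22.6 CPM in TREM-1- libraries. The groups were apart (1.19 ± 0.07, edgeR adjusted p = 1.97e-13). Il1a, which acts without caspase-1 cutting, had 60.0, 46.7, 34.0, 57.1, 62.9 and 47.3 CPM in TREM-1+ libraries, against 38.5, 32.3, 32.8, 46.6, 39.0 and 37.0 CPM in TREM-1- libraries. It was higher in 6 of 6 pairs, with overlapping ranges (0.43 ± 0.07, edgeR adjusted p = 4.41e-05). Il1rn, the antagonist of both, was abundant and did not pass, at 2124 ± 359 CPM in TREM-1+ against 2153 ± 409 CPM in TREM-1- cells (edgeR adjusted p = 0.857), so that the count ratio of Il1b to Il1rn was 0.0231 in TREM-1+ and 0.00992 in TREM-1- libraries. The ratio of Il1b to Casp1 was 3.54 ± 1.27 in TREM-1+ and 1.33 ± 0.36 in TREM-1- libraries, higher in 6 of 6 lavages. Anxa1, of the pro-resolving protein annexin A1, was higher by 0.35 ± 0.05, and Lgals3 (galectin-3, -0.21 ± 0.04) and Il18bp (the interleukin-18 decoy, -0.19 ± 0.06) were lower; the last of these calls was lost without lavage 1, 5 or 6, and both of these lower calls with library totals alone. Alveolar macrophage and lymphoid marker sums were higher in 6 of 6 pairs. Of the 8 tested neutrophil markers 6 were called higher and 2 lower, and of the 6 tested monocyte and interstitial macrophage markers 3 higher and 1 lower. The part of any of these cells in these differences was not tested.

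**Figure D5:**
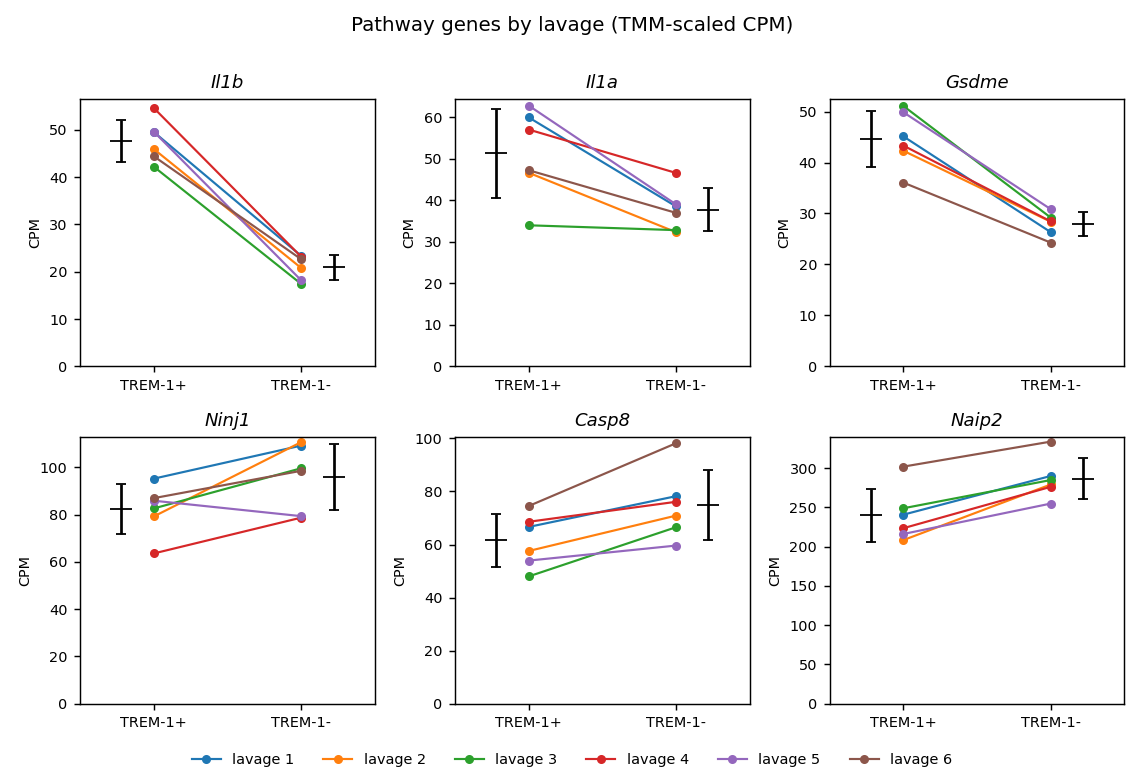
CPM in the TREM-1+ and the TREM-1- library of each lavage for Il1b, Il1a, Gsdme, Ninj1, Casp8 and Naip2, with lines joining the 2 libraries of a lavage and bars for the mean and SD of each group. All TREM-1+ libraries lie above all TREM-1- libraries for Il1b and Gsdme.

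Of 30 tested genes of the priming signals, 1 was called higher and 8 lower (median -0.02), 30% called against 9.82% of all tested genes. Tlr2, the receptor of bacterial lipoproteins, averaged 2.84 ± 0.70 CPM in TREM-1+ against 1.47 ± 0.65 CPM in TREM-1- cells (1.01 ± 0.28, edgeR adjusted p = 0.0155), a call lost without lavage 2, 4 or 5 (adjusted p between 0.0529 and 0.0743). The interferon pathway genes Irf7 (-0.34 ± 0.03) and Stat2 (-0.36 ± 0.05) were lower in 6 of 6 lavages. Irak2, a kinase of Toll-like and interleukin-1 receptors, was 126 ± 6.77 CPM in TREM-1+ against 151 ± 6.65 CPM in TREM-1- cells, with the groups apart (-0.26 ± 0.04), although the call was lost with library totals alone. Nfkb1 and Ifnar1 were the most abundant of those that did not pass.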

How the data were processed

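RNA of 12 libraries (TREM-1+ and TREM-1- cells of 6 lavages) was analysed. The deposited table holds estimated counts per gene. Per the submitters' processing notes the tools were kallisto 0.45.0 with R 4.3.0 and edgeR 3.42.4, and the build GRCm39; their roles are not stated. A second deposited table holds log2 CPM of 17934 genes, which values recomputed from the counts met within 5e-09; it served as a check and lists 8 of the 9 members. No source used here states whether strand was counted. Counts were rounded to whole numbers. The test was edgeR 4.0.16 under R 4.3.3: TMM scaling, filterByExpr (minimum count 10, minimum total 15), robust quasi-likelihood fit, lavage as block. CPM is the count per TMM-scaled library size. Alternatives used limma 3.58.1 and DESeq2 1.42.0. Standard errors come from the F statistic, and paired differences use log2 CPM with a prior count of 1. The fit was tested on simulated data.

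Fractions were paired by lavage because the series' design states that both were sorted from one lavage. Same-lavage libraries deviated together, with correlations between 0.127 and 0.502, and for 5 of the 6 TREM-1+ libraries the partner was the closest TREM-1- library. The exception was lavage 3, which also had the lowest correlation (0.127). The labels leave unsaid whether the lavages came from separate mice, so the p-values reflect variation among pools, which may be technical. Members and lists were chosen with earlier results of these data known. The text names all members and, from each list, up to 4 called genes per direction with the smallest p and up to 2 uncalled ones with the highest CPM; genes named beyond this are marked as chosen later, and some that the rule names are not reported here.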

Additional observations from a re-analysis of the deposited data

Results flagged for a closer look

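In 27 sets of 6 values (the CPM of each member in either group and its paired differences), 2 held a value whose gap to the nearest other, divided by the whole range, was above Dixon's critical value; chance alone flags about 1 in 20 sets. The paired log2 difference of Pycard in lavage 4 was 0.4546, against a nearest value of -0.034 (gap over range 0.641). Without that lavage the fitted log2 fold change of Pycard was -0.15 and still not called (edgeR adjusted p = 0.314). The paired log2 difference of Nlrp1b in lavage 1 was -0.2569, against a nearest value of -0.139 (gap over range 0.714), and without that lavage the fitted change was -0.12 and no longer called (edgeR adjusted p = 0.202).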

How the results depend on the processing

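Of 833 values of single genes under the alternatives (52 genes), 741 kept their side of the threshold, among them 36 of uncalled genes whose sign changed, 84 lost and 8 gained a call, and 0 called genes turned round. With 1 lavage left out at a time the members called higher numbered 0 to 1 and those called lower 2 to 3, against 1 and 3 in all libraries. Members called higher were 0 without the lavage block, in lavages 1 and 2 alone and without lavages 3 and 4. Members called lower were 0 without the block and 0 with library totals alone. In the pathway lists, library totals alone gave 18 higher and 20 lower, and the unpaired fit without the replicate block gave 2 higher and 1 lower (Il1b, Gsdme and Trpm2), against 7 and 35. Without the block 27 genes of all tested were called higher and 56 lower, against 568 and 1229. The cause of these differences was not tested. Depth limits Nlrp3, with 52 counts in TREM-1+ and 31 in TREM-1- libraries. The unstated number of mice per pool and the closeness of lavages 1 and 2 limit how far the 6 pairs are independent.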

Other observations

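Some genes of the lists fell outside the rule for naming and were chosen after their values were seen. Trpm2, a calcium channel opened by oxidative stress, averaged 8.81 ± 1.76 CPM in TREM-1+ against 15.6 ± 2.42 CPM in TREM-1- cells (SD, n = 6 each) and was lower in 6 of 6 lavages (-0.83 ± 0.12, edgeR adjusted p = 3.32e-06). Tnf averaged 9.36 ± 1.55 CPM in TREM-1+ against 13.2 ± 1.98 CPM in TREM-1- cells (-0.50 ± 0.12, edgeR adjusted p = 0.00342), and Pstpip1, whose product binds pyrin, 224 ± 7.37 CPM in TREM-1+ against 270.0 ± 13.5 CPM in TREM-1- cells (-0.27 ± 0.03, edgeR adjusted p = 8.99e-07). Il18, the other cytokine that caspase-1 matures, was low at 2.18 ± 0.58 CPM in TREM-1+ against 1.78 ± 0.39 CPM in TREM-1- cells and did not pass (edgeR adjusted p = 0.657). Nek7, the partner of NLRP3, did not pass either, at 77.5 ± 14.1 CPM in TREM-1+ against 73.7 ± 12.2 CPM in TREM-1- cells (edgeR adjusted p = 0.559).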
